A study of Mus musculus with 4 samples.

Results

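The genes described here encode aminoacyl-tRNA synthetases, the enzymes that load each tRNA with its amino acid. They were taken from a list of gene names, with no measured value in the rule but with earlier results of these data known, and comprise 36 of the 24532 genes in the deposited tables. Of these, 20 encode enzymes of the cytosol and 16 encode enzymes of the mitochondrion. Each was matched to the tables by its NCBI gene number, and all 36 were found. Bulk RNA came from the granule-cell-enriched (GCE) part of the vermis of the cerebellum, cut by hand from slices of adult male mice, and each mouse gave 1 library. The 2 WT mice carried no targeted allele. The 2 Kdm3b+/- mice were heterozygous for a pGT0lxf gene-trap insertion in Kdm3b, the gene of a histone H3K9 demethylase, and the line derived from 1 embryonic stem cell line, YTC406, backcrossed to C57Bl/6N and later bred to C57Bl/6J. WT mice were littermates of the Kdm3b+/- line, and no treatment was applied to either group as far as the sources used here state. The insertion is carried by every cell of the animal, so the comparison is not limited to granule cells.

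Each synthetase joins a given amino acid to its tRNAs, and the charged tRNA then delivers the amino acid to the ribosome. The cytosol and the mitochondrion translate separately, and for most amino acids the mitochondrial enzyme is encoded by its own nuclear gene and imported. Gars and Kars, the glycine and lysine genes, supply both compartments. The enzymes fall into class I and class II by the fold of the catalytic domain. Several cytosolic enzymes are held in a large multisynthetase complex by scaffold proteins. Inherited variants of several synthetase genes cause peripheral neuropathy or white-matter disease in people, and a mutation of Aars leads to the loss of Purkinje cells in mice.

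The values are TPM, a transcript abundance scaled to transcript length and to the same total in every library, so that genes can be set side by side. Sequencing depth, computed from each library's coverage and FPKM, was between 4.92 and 6.69 gigabases aligned per library. Kdm3b was listed at 9.10 and 10.996 TPM in the WT mice and at 8.30 and 7.90 TPM in the Kdm3b+/- mice (log2 fold change -0.27, SE 0.17, adjusted p = 0.424, limma). The groups did not overlap, and the adjusted p did not pass 0.05. All 10 granule cell markers passed the filter on low values, with a summed level between 3472 and 4083 TPM, highest in WT mouse 2. Markers of other cells were also present. The 10 Purkinje cell markers summed to 1588 TPM in WT mouse 1 and to between 670 and 882 TPM in the other libraries, and the 8 oligodendrocyte markers summed to between 14993 and 17888 TPM. Summed levels were 1157 to 1307 TPM for 8 astrocyte and Bergmann glia markers, 184 to 211 TPM for 7 microglia markers, 234 to 280 TPM for 6 endothelial markers, 101 to 178 TPM for 5 markers of molecular layer interneurons and 1142 to 1928 TPM for 5 red cell markers. The 4 choroid plexus markers summed to 0.294 to 1.57 TPM. The median log2 fold change, Kdm3b+/- minus WT, was -0.48 over the Purkinje cell markers and -0.55 over 4 interneuron markers that passed the filter. It was between -0.13 and 0.06 over the granule cell, astrocyte, oligodendrocyte, microglia and endothelial markers, but single genes went in both directions. Aqp4, of the astrocyte list, was higher (log2 fold change 1.10, adjusted p = 0.0329, limma). Mobp, of the oligodendrocyte list, was lower (log2 fold change -0.93, adjusted p = 0.0133, limma). Of all listed markers, only these passed a fold change of 1.2 and an adjusted p of 0.05, beside 0.461% of all genes tested. At an unadjusted p under 0.05 (limma), 5.47% of all genes tested were higher and 11.5% lower in Kdm3b+/- mice. At that p, 3 of 10 Purkinje cell and 3 of 4 interneuron markers were lower and 0 higher. Of 8 astrocyte markers, 2 were higher and 3 lower, of 10 granule cell markers 2 and 1, and of 8 oligodendrocyte markers 0 and 2. Of 7 microglia markers, 1 was higher and 0 lower, and of 5 endothelial markers 0 and 0. For the red cell markers the median was 0.41, and at that p 3 of the 5 were higher and 1 lower. Hbb-bs, a β-globin gene of the same list, went the other way, at 506 and 8.08 TPM in the WT mice and 0.00768 and 0.142 TPM in the Kdm3b+/- mice (log2 fold change -5.98, unadjusted p = 0.00177, adjusted p = 0.116, limma). Their part in the levels of the synthetase genes was not tested. In bulk tissue, fewer cells of a type and less RNA per cell cannot be told apart. Same-numbered mice are different animals, with 1 library per mouse. The limma p-values combine each gene's spread between mice of the same genotype with a spread pooled over genes of similar level.

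Every synthetase gene was expressed. All 36 members had a mean of at least 1 TPM over the 4 libraries, the level required for testing, as did 13652 of the 24532 genes. The cytosolic genes covered a range of levels from Nars, the asparagine enzyme, to Iars, the isoleucine enzyme. Nars was listed at 257 and 275 TPM in the WT mice and at 222 and 255 TPM in the Kdm3b+/- mice. Its mean level was above that of 94.6% of the genes tested. Iars was listed at 20.2 and 21.7 TPM in the WT mice and at 18.5 and 17.5 TPM in the Kdm3b+/- mice. Its mean level was above that of 50.4% of the genes tested, so even the lowest cytosolic gene stood at the middle of the expressed genes.

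Below Nars, the order of the cytosolic genes by mean TPM was Hars, Gars, Sars, Yars, Farsa, Aars, Farsb, Wars, Kars, Mars, Dars, Eprs, Rars, Tars, Cars, Vars, Qars, Lars and Iars. The range over the 4 libraries lay wholly above that of the next gene at 4 steps of this order, after Hars, Gars, Dars and Lars. At every other step the ranges of neighbours overlapped, so the order within these blocks was not resolved. Hars, the histidine enzyme, was listed at 223 and 200 TPM in the WT mice and at 221 and 225 TPM in the Kdm3b+/- mice. Gars was listed at 167 and 181 TPM in the WT mice and at 155 and 175 TPM in the Kdm3b+/- mice.

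The mitochondrial genes were expressed at lower levels. Rars2, the mitochondrial arginine enzyme, was the highest, at 49.4 and 44.4 TPM in the WT mice and 50.4 and 45.7 TPM in the Kdm3b+/- mice. Below it came Fars2, Hars2, Tars2, Yars2, Sars2, Aars2, Cars2, Lars2 and Iars2, then Nars2, Pars2, Vars2, Mars2, Wars2 and Ears2. The ranges separated at 3 steps, after Iars2, Pars2 and Wars2. The level of Lars2, described below, differed widely between libraries, so its place in this order depends on WT mouse 1. Ears2, the mitochondrial glutamate enzyme, was the lowest member, at 1.70 and 1.72 TPM in the WT mice and 2.16 and 2.33 TPM in the Kdm3b+/- mice. Its mean level was above that of 8.59% of the genes tested.

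**Figure D1:**
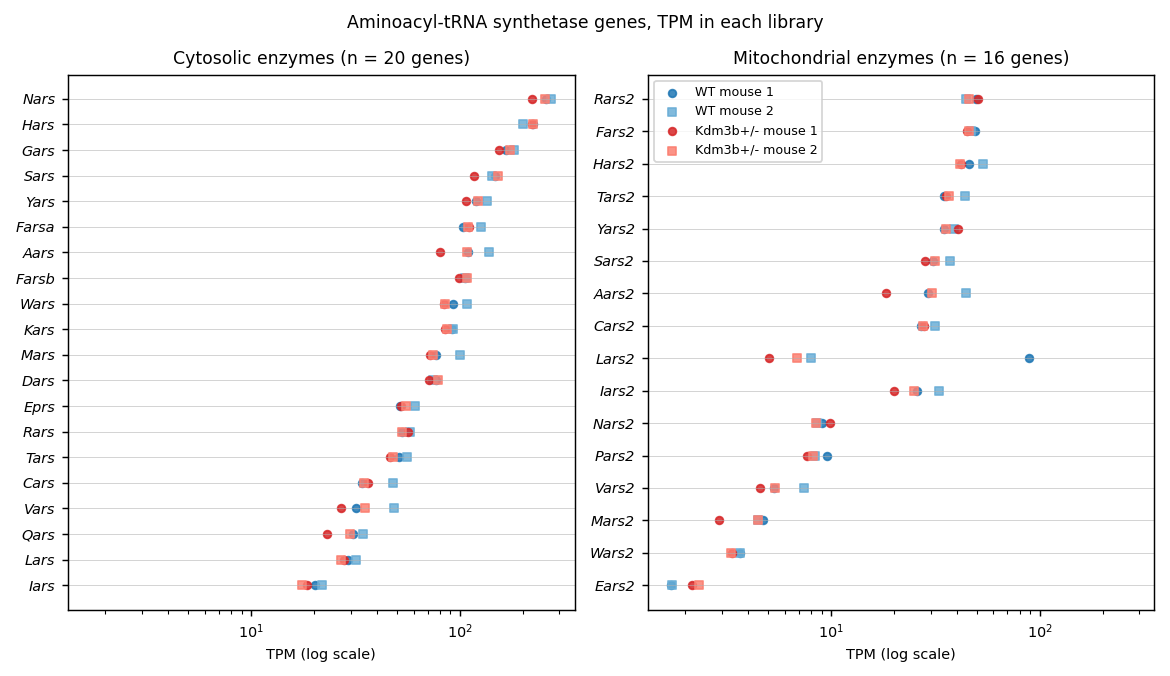
TPM of the 20 cytosolic (left) and 16 mitochondrial (right) synthetase genes on a log scale, ordered by mean, with 1 point per library (blue, WT; red, Kdm3b+/-; circles, mouse 1; squares, mouse 2). The 4 points of most genes lie close together compared with the distance between genes, and Lars2 in WT mouse 1 lies far to the right at 89.0 TPM.

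Genes that serve the same amino acid in the 2 compartments formed 17 pairs. Some pairs share a gene, as Eprs was set against both Ears2 and Pars2, and Fars2 against both Farsa and Farsb. The cytosolic gene had the higher TPM in all 4 libraries in 15 pairs. The ratio was above 16 in every library for 4 pairs, whose order differed between libraries. It was 23.8 to 35.5 for Eprs over Ears2 and 22.4 to 32.1 for Nars over Nars2. Wars exceeded Wars2, the mitochondrial tryptophan gene, by 25.2 to 29.4 times, and Mars exceeded Mars2, the mitochondrial methionine gene, by 16.3 to 24.8 times. Rars and Rars2 were nearest to equal among the 15 pairs, with ratios between 1.06 and 1.30. Ratios were also low for Cars over Cars2, from 1.25 to 1.51, and for Tars over Tars2, from 1.28 to 1.46. The isoleucine pair was reversed in every library: Iars2 was the higher gene, and the ratio of Iars to Iars2 lay between 0.661 and 0.920. The leucine pair was mixed. Lars over Lars2 was 3.97, 5.55 and 3.94 in WT mouse 2 and Kdm3b+/- mice 1 and 2, and 0.328 in WT mouse 1.

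Farsa and Farsb encode the α and β subunits of the cytosolic phenylalanine enzyme, which assembles from both. Farsa was listed at 104 and 126 TPM in the WT mice and at 110 and 109 TPM in the Kdm3b+/- mice. Farsb was listed at 106 and 105 TPM in the WT mice and at 99.2 and 108 TPM in the Kdm3b+/- mice. The ratio of Farsa to Farsb was 0.980, 1.19, 1.11 and 1.01 in the 4 libraries, close to equal in each. Neither differed between genotypes beyond the spread, with log2 fold changes of -0.06 (SE 0.14, adjusted p = 0.855) for Farsa and -0.03 (SE 0.13, adjusted p = 0.920) for Farsb. Both values are so near 0 that their sign turned under another scaling.

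The multisynthetase complex holds the 8 enzymes of Dars, Eprs, Iars, Kars, Lars, Mars, Qars and Rars. Their levels interleaved with those of the other 12 cytosolic genes, as Kars (mean 88.8 TPM) lay above Tars (50.2 TPM), outside the complex. As a group, the 8 genes of the complex had the lower median in each library. Their median level was 52.2 and 59.3 TPM in the WT mice and 54.5 and 54.0 TPM in the Kdm3b+/- mice. The median of the other 12 was 107 and 131 TPM in the WT mice and 103 and 109 TPM in the Kdm3b+/- mice. The median length of the longest transcript was 3066 bases in both groups. By class, the 9 class I genes had a median of mean levels of 38.2 TPM and the 10 class II genes of 111 TPM, with Eprs, which holds a domain of each class, left out. The split between the 2 classes overlaps with that of the complex, and neither was tested.

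No synthetase gene passed the threshold of the comparison between genotypes, which asked for more than a 1.2-fold change and for an adjusted p (limma) below 0.05. Among all genes tested, 0.461% passed it, or 63 genes. Most synthetase genes nevertheless lay slightly lower in the Kdm3b+/- mice. Values below 0 on the log2 scale were found for 19 of 20 cytosolic genes and 12 of 16 mitochondrial genes, beside 60.4% of all genes tested. With FPKM or with median-ratio scaling, and after a correction for transcript length and GC content, 14 of 20 cytosolic genes were below 0, beside 49.8% to 51.7% of all genes, and after that correction 8 of 16 mitochondrial genes were. The median log2 fold change was -0.15 over the cytosolic genes and -0.13 over the mitochondrial genes, beside -0.07 over all genes tested. The differences were small in either direction: the median size of the log2 fold change was 0.15 over the 36 members and 0.19 over all genes tested. A fold change over 1.2 was reached by 3 cytosolic and 5 mitochondrial genes, beside 34.5% of all genes tested.

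At an unadjusted p under 0.05, limma gave no cytosolic gene and 2 mitochondrial genes, Lars2 and Aars2, both lower in Kdm3b+/- mice, beside 17.0% of all genes tested in either direction, 11.5% lower and 5.47% higher. The adjusted p ranged from 0.316 to 0.978 over the cytosolic genes and from 0.250 to 0.921 over the mitochondrial genes. The groups did not overlap, with both Kdm3b+/- mice below both WT mice, for 9 of 20 cytosolic genes and 7 of 16 mitochondrial genes, beside 32.0% of all genes tested. Both Kdm3b+/- mice were above both WT mice for no cytosolic gene and 1 mitochondrial gene, Ears2, beside 19.2% of all genes. Summed over the list, the cytosolic genes reached 1954 ± 117 TPM in WT and 1795 ± 118 TPM in Kdm3b+/- mice (SD, n = 2). The groups overlapped, with sums of 1872 and 2037 TPM in the WT mice and 1712 and 1879 TPM in the Kdm3b+/- mice. The mitochondrial genes other than Lars2 reached 384 ± 32.5 TPM in WT and 345 ± 9.63 TPM in Kdm3b+/- mice (SD, n = 2). Their sums did not overlap, at 361 and 407 TPM in the WT mice and 338 and 352 TPM in the Kdm3b+/- mice. With 2 mice against 2, an exact permutation test cannot give a two-sided p under 0.333, so no test was made on these sums.

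**Figure D2:**
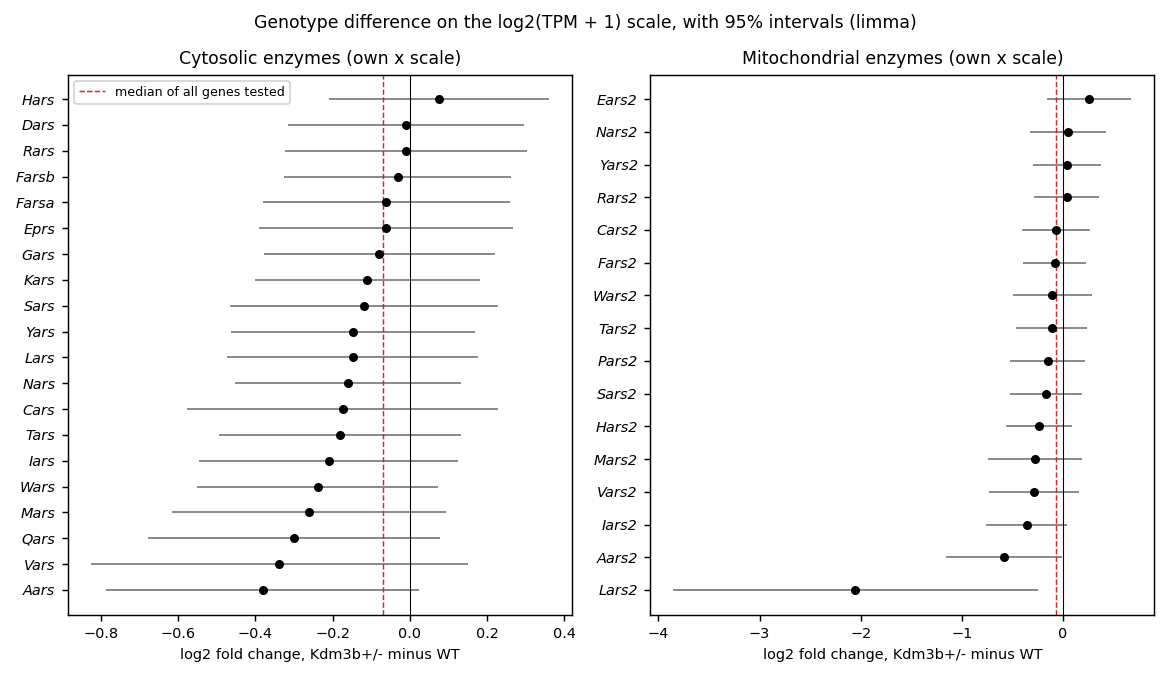
Log2 fold change of each synthetase gene, Kdm3b+/- minus WT, on the log2(TPM + 1) scale, with 95% intervals from limma. The panels have different horizontal scales. The dashed line marks the median of all genes tested, -0.07. All 20 cytosolic intervals include 0, and Lars2, at -2.05, stands apart among the mitochondrial genes.

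Among cytosolic genes whose groups did not overlap, the largest differences were those of Aars, Qars, Mars and Wars. Aars, the alanine enzyme, was listed at 109 and 137 TPM in the WT mice and at 80.6 and 109 TPM in the Kdm3b+/- mice. WT mouse 1 and Kdm3b+/- mouse 2 were nearly equal, and WT mouse 2 and Kdm3b+/- mouse 1 lay at the extremes. The log2 fold change was -0.38 (SE 0.18, adjusted p = 0.316). Qars, the glutamine enzyme of the complex, was listed at 30.7 and 34.5 TPM in the WT mice and at 23.1 and 29.8 TPM in the Kdm3b+/- mice. The change on the log2 scale was -0.30 (SE 0.17, adjusted p = 0.386), and here too 1 WT and 1 Kdm3b+/- value were close. Mars, the methionine enzyme, was listed at 77.2 and 100.2 TPM in the WT mice and at 72.3 and 74.1 TPM in the Kdm3b+/- mice, with WT mouse 2 alone far above the others (log2 fold change -0.26, SE 0.16, adjusted p = 0.417). Mars overlaps Ddit3 on the other strand by 68 bases. Whether the libraries kept strand is not given in the sources used here, so reads of the overlap could be counted for either gene. Wars, the tryptophan enzyme, was listed at 93.0 and 108 TPM in the WT mice and at 84.3 and 85.3 TPM in the Kdm3b+/- mice. The 2 Kdm3b+/- mice lay close together and below both WT mice, and the log2 fold change was -0.24 (SE 0.14, adjusted p = 0.400). These sizes depended on single libraries and on the correction for length and GC content. With 1 library left out, they ranged from -0.59 (without Kdm3b+/- mouse 2) to -0.17 (without Kdm3b+/- mouse 1) for Aars and from -0.48 to -0.12 for Qars with the same mice left out. Without WT mouse 1 and without WT mouse 2, they were -0.45 and -0.075 for Mars and -0.35 and -0.13 for Wars. After the correction they were -0.20 for Aars, -0.15 for Qars, -0.079 for Mars and -0.073 for Wars.

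The highest and the lowest cytosolic gene were both lower in both Kdm3b+/- mice, with log2 fold changes of -0.16 for Nars (SE 0.13, adjusted p = 0.547) and -0.21 for Iars (SE 0.15, adjusted p = 0.489). Tars, Kars and Lars, the threonine, lysine and leucine genes, completed the 9 that did not overlap. Vars, the valine gene, had a larger log2 fold change than most of these, at -0.34, but its groups overlapped, at 31.6 and 48.6 TPM in the WT mice and 27.0 and 35.1 TPM in the Kdm3b+/- mice. The groups overlapped as well for Dars, Eprs, Rars, Farsa, Farsb, Gars, Sars, Yars and Cars, all with a log2 fold change below 0, and for Hars, the only cytosolic gene above 0, at 0.08. Over the 4 fits that left out 1 library, the value of Vars ranged from -0.64 without WT mouse 1 to -0.037 without WT mouse 2, and after the correction for length and GC content it was -0.09. None of these differences passed the adjusted threshold.

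Lars2, the mitochondrial leucine gene, was the member that varied most. It was listed at 89.0 and 8.04 TPM in the WT mice and at 5.04 and 6.84 TPM in the Kdm3b+/- mice. WT mouse 1 was 11.1 times above the next library, while the other 3 libraries, WT mouse 2 among them, lay close together. The coverage, the mean read depth over the exons, was 185 in WT mouse 1 and between 11.7 and 18.5 in the other libraries, so the difference was present before scaling. In WT mouse 1 the gene held 19.8% of the summed TPM of the 16 mitochondrial genes, and in the other libraries between 1.47% and 1.94%. By the ratio of TPM + 1 in WT mouse 1 to the highest of the other libraries, Lars2 ranked 2 among the 13652 genes tested. No other gene of the tables overlaps its entry on chromosome 9, from 123366927 to 123462675.

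The log2 fold change of Lars2 was -2.05 (SE 0.80, adjusted p = 0.250) with all 4 libraries. With a library left out, a group holds 1 mouse and has no spread of its own, so only sizes are given here. Without WT mouse 1 the log2 fold change was -0.39. Without WT mouse 2 it was -3.71, and without Kdm3b+/- mouse 2 it was -2.24. A single library thus sets the size of this difference. WT mouse 1 also had the highest summed level of Purkinje cell markers, 1588 TPM beside 670 to 882 TPM, and its summed red cell markers were 1765 TPM beside 1142 to 1928 TPM. Of the red cell markers, Hbb-bs stood apart in that library as Lars2 did, at 506 TPM beside 0.00768 to 8.08 TPM. Their part in the level of Lars2 was not tested.

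The other mitochondrial genes differed less. Aars2, the mitochondrial alanine enzyme, was listed at 29.2 and 44.1 TPM in the WT mice and at 18.4 and 30.3 TPM in the Kdm3b+/- mice. Its groups overlapped, since Kdm3b+/- mouse 2 lay above WT mouse 1, and the log2 fold change was -0.58 (SE 0.25, unadjusted p = 0.0463 and adjusted p = 0.286 by limma). Over the 4 fits that left out 1 library it ranged from -0.93 without Kdm3b+/- mouse 2 to -0.24 without Kdm3b+/- mouse 1, and after the correction for length and GC content it was -0.34. Aars2 and its cytosolic counterpart Aars had the same order of libraries at both ends, with WT mouse 2 the highest and Kdm3b+/- mouse 1 the lowest. These ends were common in the list: WT mouse 2 was highest for 24 and Kdm3b+/- mouse 1 lowest for 21 of the 36 members. The ratio of Aars to Aars2 was 3.72 and 3.11 for WT and 4.38 and 3.59 for Kdm3b+/- mice.

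Iars2, the mitochondrial isoleucine enzyme, was listed at 25.7 and 32.9 TPM in the WT mice and at 20.1 and 25.01 TPM in the Kdm3b+/- mice (log2 fold change -0.36, SE 0.18, adjusted p = 0.336). Kdm3b+/- mouse 2 was just below WT mouse 1. Mars2 was listed at 4.74 and 4.47 TPM in the WT mice and at 2.91 and 4.47 TPM in the Kdm3b+/- mice (log2 fold change -0.28, SE 0.20, adjusted p = 0.508). Only Kdm3b+/- mouse 1 was clearly lower, and the other 3 libraries lay close together. Hars2 was listed at 45.8 and 53.3 TPM in the WT mice and at 41.9 and 41.3 TPM in the Kdm3b+/- mice (log2 fold change -0.24, SE 0.14, adjusted p = 0.415). The 2 Kdm3b+/- mice nearly coincided, below both WT mice. With 1 library left out, the values ranged from -0.53 (without WT mouse 1) to -0.19 (without WT mouse 2) for Iars2, from -0.52 (without Kdm3b+/- mouse 2) to -0.035 (without Kdm3b+/- mouse 1) for Mars2 and from -0.35 (without WT mouse 1) to -0.13 (without WT mouse 2) for Hars2.

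Ears2, the lowest member, was the only one of the 36 with both Kdm3b+/- mice above both WT mice. The log2 fold change was 0.26 (SE 0.18, adjusted p = 0.493) on the log2(TPM + 1) scale, which understates the change of genes this low. With a pseudocount of 0.1 it was 0.37 (adjusted p = 0.504). After the correction for length and GC content it was 0.43 (unadjusted p = 0.0347, adjusted p = 0.291, limma), and Ears2 was then the only mitochondrial gene with an unadjusted p under 0.05. Rars2, the highest mitochondrial gene, had a log2 fold change of 0.03 (SE 0.14, adjusted p = 0.921), with overlapping groups and a sign that turned after the correction for length and GC content. Yars2 and Nars2 were also slightly above 0, with overlapping groups. Fars2, Pars2 and Wars2 were lower without overlap, and Cars2, Tars2, Sars2 and Vars2 were lower with overlap.

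Hars and Hars2 lie head to head on chromosome 18 with a gap of 3 bases between their entries. Hars2 was lower in both Kdm3b+/- mice, at -0.24, while Hars was at 0.08 with overlapping groups, and neither difference passed the threshold. Kdm3b lies on the same chromosome, as do Nars and Lars. The part of sequence linked to the insertion in the levels of these genes was not tested. Farsb overlaps Sgpp2, a sphingosine phosphatase gene on the other strand, by 2329 bases, and Iars2 overlaps Rab3gap2 on the other strand by 85 bases. Sars2 lies 186 bases from Mrps12, a mitochondrial ribosomal protein gene, on the other strand. Sars2 was listed at 30.7 and 37.0 TPM in the WT mice and at 28.2 and 31.5 TPM in the Kdm3b+/- mice (log2 fold change -0.17). Mrps12 was listed at 191 and 176 TPM in the WT mice and at 293 and 230 TPM in the Kdm3b+/- mice (log2 fold change 0.50, unadjusted p = 0.00822 by limma).

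The libraries were not alike within a genotype. WT mouse 2 had the highest TPM of the 4 libraries for 24 of the 36 members, and for 16 of the 20 cytosolic ones, beside 42.4% of all genes tested. Kdm3b+/- mouse 1 had the lowest TPM for 21 of the 36, beside 38.0% of all genes tested. On the log2 scale, the cytosolic genes deviated from their own mean by a median of 0.15 in WT mouse 2 and -0.10 in Kdm3b+/- mouse 1, and by 0.02 and 0.01 in WT mouse 1 and Kdm3b+/- mouse 2. The same medians over all genes tested were 0.06 in WT mouse 2 and -0.06 in Kdm3b+/- mouse 1. For the cytosolic genes, then, the middle values of the 2 genotypes came from WT mouse 1 and Kdm3b+/- mouse 2, which lay together. The summed granule cell markers were highest in WT mouse 2 as well, and their part in these levels was not tested.

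The median log2 fold change of the cytosolic genes was -0.21 without WT mouse 1, -0.07 without WT mouse 2, -0.08 without Kdm3b+/- mouse 1 and -0.17 without Kdm3b+/- mouse 2. That of the mitochondrial genes was -0.21, -0.09, -0.09 and -0.17 in the same order. For all genes tested it was -0.10, -0.04, -0.05 and -0.09. The medians of both compartments stayed below that of all genes in each of these fits. Kars, the lysine gene, had small differences between mice of the same genotype, at 91.6 and 92.9 TPM in the WT mice and 84.4 and 86.4 TPM in the Kdm3b+/- mice (log2 fold change -0.11, adjusted p = 0.690).

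**Figure D3:**
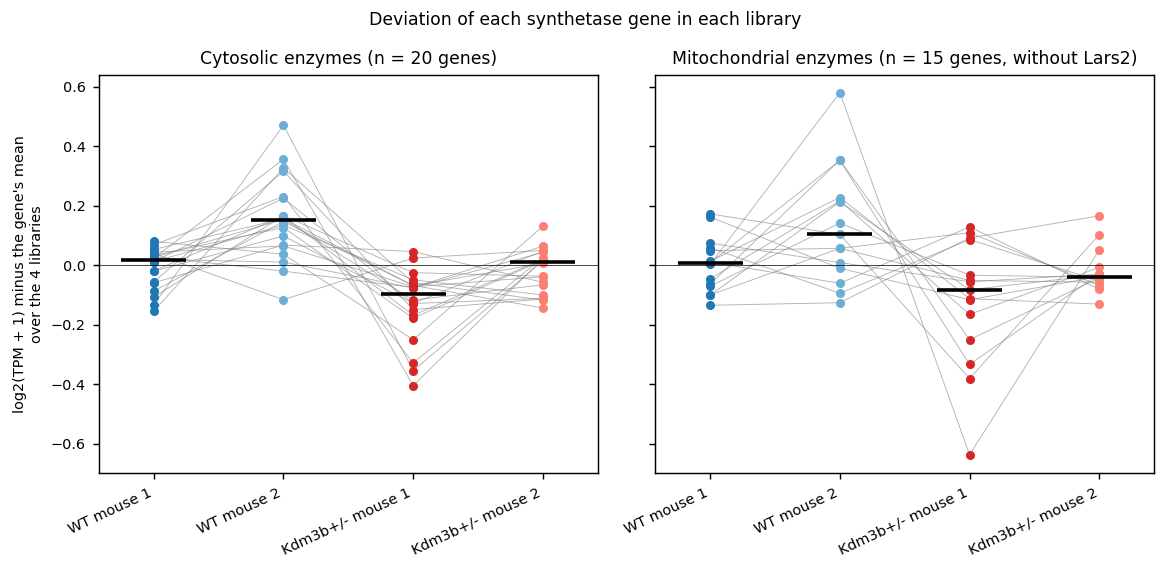
Deviation of log2(TPM + 1) from the mean of the 4 libraries, for each of 20 cytosolic genes (left) and 15 mitochondrial genes without Lars2 (right); points are genes, grey lines join the same gene, and black bars are medians. WT mouse 2 has the highest median in both panels, 0.15 and 0.10, and Kdm3b+/- mouse 1 the lowest, -0.10 and -0.08.

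The difference between genotypes was then set beside the base composition of the transcripts. The 5 members of the highest GC content were Vars, Sars2, Aars2, Vars2 and Aars, with 56.4% to 60.9% GC in the longest transcript and log2 fold changes from -0.58 to -0.17. At the other end, Dars, the aspartate gene, had 41.2% GC and a log2 fold change of -0.01, and Rars2 had 44.1% GC and 0.03. Mars2 went against this pattern, with 38.8% GC and -0.28. Over the 35 members without Lars2, Spearman's rho between GC content and log2 fold change was -0.52, and between transcript length and log2 fold change -0.40. These are descriptions across genes that share the same 4 libraries. Over the 12904 genes tested that had a length, the values were -0.13 and -0.23. After a correction of each library for length and GC content, the median log2 fold change was -0.05 over the cytosolic genes and -0.003 over the mitochondrial genes, beside 0.001 over all genes. The number of genes lower without overlap then fell from 9 to 3 among the cytosolic and from 7 to 4 among the mitochondrial genes. The share of all genes lower without overlap after this correction is not given here. The fall can therefore not be read as particular to the synthetase genes.

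**Figure D4:**
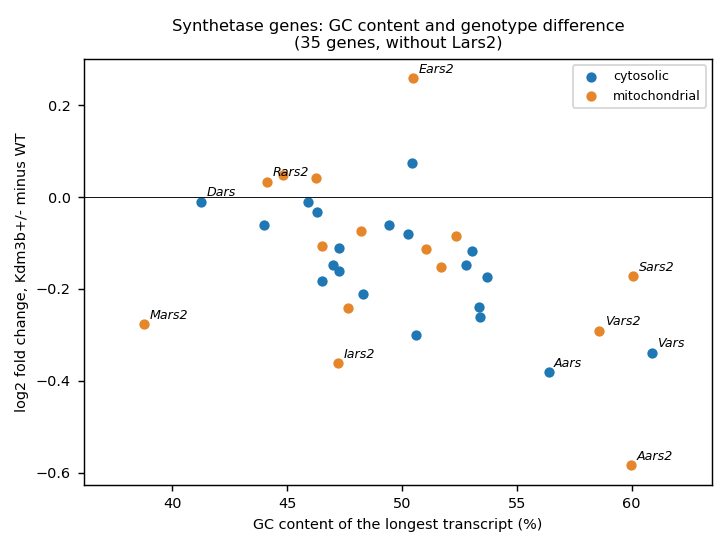
GC content of the longest transcript (%) against the log2 fold change, Kdm3b+/- minus WT, for 35 synthetase genes without Lars2, with 1 point per gene (blue, cytosolic; orange, mitochondrial). The 5 genes above 56% GC all lie below -0.1, and Mars2, at 38.8% GC, lies apart from the other genes of low GC content.

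Several cytosolic synthetase genes are known targets of ATF4, the transcription factor of the amino acid and integrated stress response, which binds a composite C/EBP and ATF element in promoters. Promoters from 250 bases before to 50 bases after the start of the gene were taken from RefSeq on GRCm38.p6. They were found for 27 of the 36 members, 13 cytosolic and 14 mitochondrial. The promoters of Nars, Hars, Wars, Rars, Cars, Vars, Lars, Hars2 and Pars2 were not analysed here. The core TGATGCAA, searched on both strands, was found in 4 cytosolic promoters and in 0 of the 14 mitochondrial promoters, and in 0.895% of all 32851 promoters. The wider form TGATGNAAN, which contains all of these matches, was found in 5 cytosolic and 0 mitochondrial promoters and in 3.95% of all promoters, and it adds a site in Gars. The sites of Yars, Iars, Tars and Gars are shown as examples of these cytosolic matches. Each is printed 5′ to 3′ on the strand that carries the motif, with the motif in capitals and 10 bases on either side. They are, in turn, those of Yars at chr4:129189896-129189923 on the forward strand, Iars at chr13:49682127-49682154 on the reverse strand, Tars at chr15:11399656-11399683 on the forward strand and Gars at chr6:55037960-55037988 on the reverse strand.
Yars: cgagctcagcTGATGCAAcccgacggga
Iars: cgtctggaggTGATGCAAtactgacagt
Tars: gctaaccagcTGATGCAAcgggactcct
Gars: gcccggtgcaTGATGAAATagcgcagcca

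Positions are counted from the start that RefSeq gives the promoter, which is the start of the deposited entry for Iars, Tars and Gars but lies downstream of it for Yars, whose deposited entry starts at base 129189795 of chromosome 4. From there the motif of Yars lies at bases 4 to 11, and that of Iars at bases 8 to 15. The motif of Tars lies just before it, at bases -15 to -8, and that of Gars lies further upstream, at bases -31 to -23. In the Kdm3b+/- mice these 4 genes had log2 fold changes of -0.15 for Yars, -0.21 for Iars, -0.18 for Tars and -0.08 for Gars, none past the threshold and that of Yars above 0 after the correction for length and GC content. A match of these letters is a description and does not show binding.

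The wider set of genes of the amino acid and integrated stress response was then examined. Of 32 genes listed, 29 passed the filter, and none was called, beside 0.461% of all genes. At an unadjusted p under 0.05, limma gave 1 gene higher and 2 lower, beside 5.47% and 11.5% of all genes. Atf4 itself was listed at 117 and 113 TPM in the WT mice and at 122 and 154 TPM in the Kdm3b+/- mice, both above the WT mice and Kdm3b+/- mouse 2 most (log2 fold change 0.25, SE 0.15, adjusted p = 0.421). Its target Ddit3, also named CHOP, was listed at 83.2 and 81.4 TPM in the WT mice and at 94.9 and 89.9 TPM in the Kdm3b+/- mice (log2 fold change 0.16, adjusted p = 0.536, and -0.020 after the correction for length and GC content). Asns, the asparagine synthetase target, had overlapping groups and a log2 fold change of -0.05 (adjusted p = 0.858). Eif2ak4, the kinase that senses uncharged tRNA, had overlapping groups and a log2 fold change of -0.13 (adjusted p = 0.755), which was 0.020 after that correction.

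The gene of this list with p under 0.05 that was higher was Eif2ak2, the kinase that senses double-stranded RNA, at 0.667 and 0.298 TPM in the WT mice and 1.38 and 1.72 TPM in the Kdm3b+/- mice (log2 fold change 0.79, adjusted p = 0.160), a low level in every library. Slc7a5, the light chain of a transporter of large neutral amino acids, was listed at 22.03 and 31.9 TPM in the WT mice and at 15.3 and 19.9 TPM in the Kdm3b+/- mice (log2 fold change -0.58, adjusted p = 0.228). Ppp1r15a, which directs dephosphorylation of eIF2α, was listed at 91.9 and 96.4 TPM in the WT mice and at 76.8 and 68.8 TPM in the Kdm3b+/- mice (log2 fold change -0.37, adjusted p = 0.237). Over the 29 genes the median log2 fold change was -0.12, beside -0.07 over all genes tested, and 7 were higher and 8 lower without overlap, beside 19.2% and 32.0% of all genes.

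Genes that act with the synthetases were examined as well, among them the scaffolds of the multisynthetase complex, the amidotransferase that makes mitochondrial glutaminyl-tRNA, and enzymes that edit or release tRNA. All 16 of the list passed the filter and none was called, beside 0.461% of all genes. Eef1e1, a scaffold of the complex also named Aimp3, was the only one with an unadjusted p under 0.05, beside 17.0% of all genes. It was listed at 98.3 and 97.0 TPM in the WT mice and at 132 and 122 TPM in the Kdm3b+/- mice. The 2 mice of each genotype lay close together and the groups were well apart, and the log2 fold change was 0.38 (SE 0.13, unadjusted p = 0.0167, adjusted p = 0.216, limma). It remained between 0.32 and 0.44 when any library was left out.

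The other scaffolds also lay higher without overlap, by smaller amounts. Aimp1 was listed at 119 and 106 TPM in the WT mice and at 121 and 126 TPM in the Kdm3b+/- mice (log2 fold change 0.14, adjusted p = 0.627). Aimp2 was listed at 106 and 106 TPM in the WT mice and at 122 and 108 TPM in the Kdm3b+/- mice (log2 fold change 0.12, adjusted p = 0.685). The 8 enzymes held by these scaffolds had a median log2 fold change of -0.13, all 8 below 0 and 5 of them lower without overlap, beside 32.0% of all genes. Dars, among the 8, was above 0 with FPKM (0.054), median-ratio scaling (0.063) and quantile normalization (0.047). Rars (-0.010) and Eprs (-0.061), also among the 8, were near 0 in the main fit as well. With FPKM or median-ratio scaling, 14 of the 20 cytosolic genes were below 0, in place of 19. The values of Rars and Eprs under those scalings are not given here, so all 8 being below 0 holds for the main fit only. Aimp2 was at 0.0034 after the correction for length and GC content. No member of either group passed the adjusted threshold.

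Gatb, Gatc and Qrsl1 encode the subunits of the mitochondrial amidotransferase. Gatb was listed at 18.2 and 20.6 TPM in the WT mice and at 16.6 and 15.8 TPM in the Kdm3b+/- mice (log2 fold change -0.24, adjusted p = 0.437). Gatc and Qrsl1 had overlapping groups, with log2 fold changes of 0.07 (adjusted p = 0.836) and 0.07 (adjusted p = 0.835). Over the 16 partners the median log2 fold change was 0.07, with 6 higher and 2 lower without overlap, beside 19.2% and 32.0% of all genes. The 2 other families of translation genes, picked after results were known, are given for comparison. The 78 mitochondrial ribosomal protein genes had a median log2 fold change of 0.25, with 74 above 0, and the 65 initiation and elongation factor genes had a median of 0.05, with 41 above 0, beside 5402 of the 13652 genes tested. The median length of the longest transcript was 1866 bases for the mitochondrial ribosomal protein genes, 3490 bases for the mitochondrial synthetase genes and 3364 bases for all genes tested, and the part of length in this contrast was not tested.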

How the data were processed

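RNA-seq of GCE tissue from 2 WT and 2 Kdm3b+/- mice was examined, grouped by the genotype in the labels, which name the tissue as cerebellum. According to the methods, reads were trimmed, aligned with STAR and quantified with StringTie. Tool versions, genome build, annotation and strandedness are not given in the sources used here. All 36 members lay on the chromosome that RefSeq gives on GRCm38.p6, and 31 had start and end within 1 kb of it. The authors deposited 3 values per gene and library. The deposited TPM values are relative to transcript length and to a library total of 1000000. The deposited FPKM values are relative to length and mapped fragments. The deposited coverage is the unscaled mean depth over exons. Read counts were not given, so no count model was used and no counting intervals were computed.

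TPM was summed per gene number and set on the log2(TPM + 1) scale. The 13652 genes whose mean TPM reached 1 entered a limma fit (version 3.58.1, R 4.3.3, trended eBayes) of genotype alone, with Benjamini-Hochberg adjustment over all of them. Calls needed a fold change above 1.2 and an adjusted p below 0.05. This takes the place of the count test of the study's methods. Transcript length and GC content are those of the longest GENCODE M21 transcript, known for 94.5% of the tested genes. Python 3.11.15, pandas 2.3.3, NumPy 2.4.6 and Matplotlib 3.10.9 served for tables and figures, and statmod 1.5.0 for robust fits. The fit was tested on simulated data.

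The members, the lists of partner, stress and marker genes and the promoter motifs were chosen with earlier results of these data known. Full values were given, per compartment, for up to 4 genes with the largest rise and 4 with the largest fall among those without overlap, for the highest and the lowest gene, and for Farsa and Farsb. Aars2, Vars, Hars, Gars, Kars, Sars2, Dars and the neighbours were added after their values were seen. Alternative fits used a pseudocount of 0.1, FPKM, no filter or a minimum mean TPM of 5, other scalings (median-ratio, quantile), the highest entry per gene number, eBayes with robust or untrended settings, a replicate block, a loess correction for length and GC content, both of these together, and 3 of the 4 libraries. Protein sequences were not analysed here, and 1 promoter site is counted but not reported here.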

Additional observations from a re-analysis of the deposited data

How the results depend on the processing

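The medians of both compartments stayed below 0 in all fits: they ranged over the fits with a library left out from -0.21 to -0.07 for the cytosolic and from -0.21 to -0.09 for the mitochondrial genes, and without Lars2, a choice made after seeing the data, the mitochondrial median was -0.11. With all 4 libraries, the number of members called was 0 in every fit except that with the replicate block. There it was 1 (Aars2, adjusted p = 0.0399, limma), while 600 genes were called in all. Calls from the fits with a library left out are not given, since a group then holds 1 mouse. The labels do not say whether mice of the same number share anything else. Across genes, the deviations of WT mouse 1 and Kdm3b+/- mouse 1 from their group means correlated at 0.121. After the length and GC correction the value was 0.0229. With 2 mice per group, the deviations of mouse 2 mirror those of mouse 1. Whether the number marks a batch was not tested. The replicate block otherwise gave 2 cytosolic genes with p under 0.05 (Aars and Vars), and among the other named genes it brought Slc7a5 past the threshold.

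Mitochondrial genes with p under 0.05 numbered 1 in place of 2 with FPKM, median-ratio scaling, quantile normalization, eBayes without trend, the length and GC correction (Ears2, which was higher) or without Lars2, 3 with the replicate block (with Iars2 added) and with the block and the correction together (Aars2, Lars2 and Ears2), 0 without a filter or with robust eBayes, and 1 to 4 with a library left out. Cytosolic ones numbered 1 without a filter and 0 to 5 with a library left out, most without WT mouse 1. Mitochondrial genes lower without overlap numbered 4 with FPKM, median-ratio scaling and the length and GC correction with or without the block, 2 with quantile normalization, and 7 to 12 with a library left out. Cytosolic ones numbered 3 after the length and GC correction with or without the block, and 9 to 16 with a library left out. With a library left out, 1 mouse stands against 2, and the groups then separate more readily by chance. The counts from those fits can therefore not be set beside those from all 4 libraries. The shares of all genes under these settings are not given here for p under 0.05 or for overlap. No shift in these counts can therefore be read as particular to the synthetase genes.

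Some signs turned, mostly for values near 0 but also for Yars (-0.15), Ddit3 (0.16) and Eif2ak4 (-0.13). Not every member is covered here: with FPKM or median-ratio scaling, 14 of 20 cytosolic genes were below 0, in place of 19. With FPKM the log2 fold change was 0.0041 for Farsa, 0.033 for Farsb, 0.054 for Dars and 0.013 for Asns, and with median-ratio scaling 0.012, 0.041, 0.063 and 0.021. Quantile normalization gave 0.047 for Dars. The length and GC correction, with or without the block, gave -0.013 for Rars2, 0.087 for Farsa, 0.014 for Yars, -0.020 for Ddit3 and 0.020 for Eif2ak4. With a library left out, the values ranged from -0.042 to 0.11 for Rars2, from -0.20 to 0.076 for Farsa, from -0.091 to 0.028 for Farsb, from -0.17 to 0.0083 for Gars, from -0.0025 to 0.15 for Hars, from -0.079 to 0.060 for Dars, from -0.053 to 0.19 for Gatc, from -0.0037 to 0.15 for Qrsl1 and from -0.37 to 0.11 for Eif2ak4. The cause of these turns was not tested.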
